A study of Mus musculus with 12 samples.

Results

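The genes described here are the clustered histone genes of the human genome, which encode the linker histone H1 and the core histones H2A, H2B, H3 and H4. They were chosen as the protein-coding genes whose description in the deposited table names a histone cluster, which gave 72 of the 58735 genes listed. Most of these genes are transcribed in S phase, when new DNA is packaged into nucleosomes, and their main transcripts end in a stem-loop instead of a poly(A) tail. The stem-loop is bound by SLBP and cut with the help of the U7 small nuclear RNP, so a library made from poly(A)+ RNA captures mainly the polyadenylated forms of histone mRNA. HIST1H1C, HIST1H2AC, HIST1H2BC, HIST1H2BD, HIST1H2BK and HIST2H2BE are known to give polyadenylated transcripts as well.

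RNA-seq was carried out in U2OS cells, a human osteosarcoma cell line, to find the genes that follow the splicing factor SRSF1. The 12 libraries formed 4 groups of 3: blank U2OS cells, cells given an siRNA against SRSF1, either siSRSF1-2 or siSRSF1-3, and cells in which LINC01134, a long non-coding RNA, was overexpressed (OE-LINC01134). No library of cells with a control siRNA or an empty vector was analysed here, so transfection and knockdown cannot be told apart. The paper selected mRNA with poly-T beads, while the sample labels name a SMARTer kit, and the labels do not say whether replicates came from separate cultures, so the p-values measure only the spread between these libraries.

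The tables hold FPKM (fragments counted on a gene, scaled for its length and for library size), from which reads were recovered. The libraries held from 26237763 to 32954539 such reads. SRSF1 lay at 35.9, 19.8 and 20.5 FPKM in blank, 7.09, 7.46 and 7.41 with siSRSF1-2 (log2 fold change -1.72, limma adjusted p = 0.005) and 3.33, 6.81 and 7.90 with siSRSF1-3 (log2 fold change -2.09, limma adjusted p = 0.0518), below every blank library in both. LINC01134 lay at 878 to 1279 FPKM with OE-LINC01134 and at most at 1.11 elsewhere. Of the osteoblast and mesenchyme markers, VIM (68.7 to 248 FPKM), SPARC (36.0 to 111) and COL1A1 (14.1 to 39.7) were high, RUNX2 was at 1.55 to 3.92, and COL1A2 was at most at 0.0131. PTPRC of leukocytes stayed at or under 0.0559, PECAM1 of endothelium at or under 0.368 and EPCAM of epithelium at or under 2.43 FPKM. Several libraries stood apart from the others of their group. On a chi-square statistic per gene, for which counting noise alone gives a median near 0.455, blank replicates 2 and 3 differed by a median of 1.07, OE-LINC01134 replicates 1 and 3 by 0.879 and the siSRSF1-2 replicates by 1.01 to 1.23. Blank replicate 1 differed from its group by 14.4 to 14.9, OE-LINC01134 replicate 2 by 15.5 to 15.7, and the siSRSF1-3 replicates among themselves by 10.7 to 43.5. The counts and medians of the histone genes are given with and without these libraries, as are other values that change with them.

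Of the 72 genes, 36 had a read in every library, 25 in some libraries and 11 in none. The 11 without a read were HIST1H2AA, HIST1H2AD, HIST1H2AK, HIST1H2BA, HIST1H3C, HIST1H3D, HIST1H3F, HIST1H3I, HIST1H4F, HIST1H4L and ENSG00000203818, which the table describes as an H3 pseudogene. A count of 0 allows up to 3 reads per gene over the libraries, for counting error only. Only 29 genes reached a mean of 0.5 FPKM over the libraries, the minimum for testing, and 10 reached 5 FPKM. The 29 tested genes held 99.2% of the 160077 reads on clustered histone genes.

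**Figure D1:**
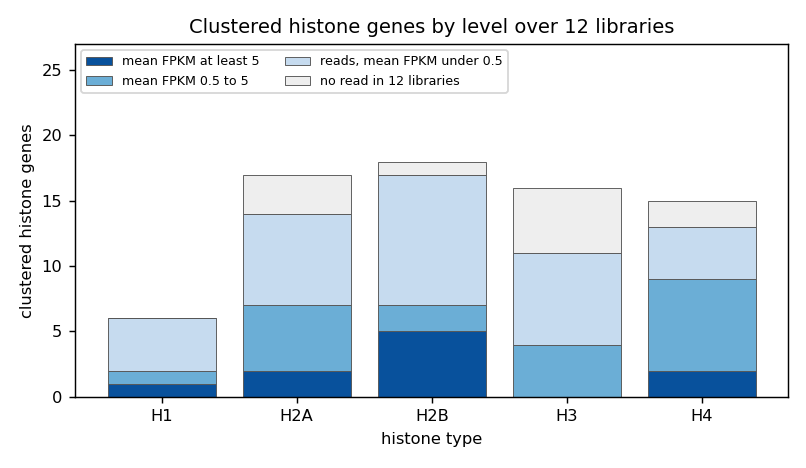
Number of clustered histone genes (vertical axis) of each histone type (horizontal axis), divided by mean FPKM over the 12 libraries. The 5 H3 genes in the palest shade had no read, while H2B had 5 genes at 5 FPKM or more.

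By histone type, 2 of 6 H1 genes, 7 of 17 H2A genes, 7 of 18 H2B genes, 4 of 16 H3 genes and 9 of 15 H4 genes were tested. H2B genes made up 45.8% of the summed mean FPKM, H1 genes 36%, H2A genes 9.19%, H4 genes 8.19% and H3 genes 0.82%. H3 was therefore the type with the least signal, and its highest gene, HIST1H3H, had a mean of 1.91 FPKM. By position, 55 genes belonged to cluster 1 on chromosome 6 and held 96.1% of the summed mean FPKM. Cluster 2 had 13 genes, cluster 3 had 3 and cluster 4 had HIST4H4 alone, on chromosome 12, with 15 genes of clusters 2 and 3 on chromosome 1 and 1 on chromosome 5. None of the 3 cluster 3 genes was tested.

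The level was concentrated in few genes. HIST1H1C, a linker histone gene (6:26055787-26056428, minus strand, as the table lists it, with a build that the sources used here do not give for human genes), had a mean of 228 FPKM, and HIST1H2BK, an H2B gene (6:27146418-27146798, minus strand), a mean of 218 FPKM. Both together made up 69.8% of the summed mean FPKM, and the 8 highest genes made up 93%. The other 6 of these were HIST1H2AC (44.8), HIST1H4I (30.0), HIST1H2BJ (27), HIST1H2BD (24.8), HIST2H2BE (12.3) and HIST1H4H (9.82 FPKM). HIST1H1C, HIST1H2BK, HIST1H2AC, HIST1H2BD and HIST2H2BE of these 8 are among the 6 known to be polyadenylated as well, and the sixth, HIST1H2BC, came ninth with 7.67 FPKM. By gene length as listed, 11 of the 21 genes over 1000 bases were tested, against 18 of the 51 shorter genes. The median of the mean FPKM was 0.553 against 0.162. The shorter genes, HIST1H1C and HIST1H2BK among them, still held 82.7% of the summed mean FPKM.

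The other linker histone genes were far lower than HIST1H1C. HIST1H1E had a mean of 1.57 FPKM and was tested, while HIST1H1A had 4 reads, HIST1H1B 3 and HIST1H1D 2 over all libraries. HIST1H1T, the testis form, had 15 reads. With so few reads, these last 4 genes were not compared between groups.

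Other RNAs without a poly(A) tail are given beside these levels. Of the 14 listed, 8 had no read in any library, among them RN7SK, and 2 reached 0.5 FPKM, RN7SL2 and SNORD3A. RN7SL2, an RNA of the signal recognition particle, lay between 999.9 and 4036 FPKM, and SNORD3A, the U3 small nucleolar RNA, lay between 0.565 and 2.03 FPKM except in siSRSF1-3 replicate 1, which reached 22.8. Genes of the biotype snRNA took 0.00231% to 0.0056% of the reads, snoRNA genes 0.00449% to 0.00766% and scaRNA genes 0.000105% to 0.00031%. The part of library selection in the histone values was not tested.

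The clustered histone genes varied widely among the replicates of a group. As RPM, the reads on a gene scaled to the total of its library, the 72 genes summed to 889.2, 347.0 and 355.5 in blank, 393.5, 737.4 and 391.3 in OE-LINC01134, 348.4, 328.7 and 318.1 in siSRSF1-2, and 637.6, 568.3 and 396.2 in siSRSF1-3. Blank replicate 1, OE-LINC01134 replicate 2 and siSRSF1-3 replicates 1 and 2 were thus high, and the other libraries lay within 318.1 to 396.2. The siSRSF1-2 libraries lay below every OE-LINC01134 and siSRSF1-3 library and overlapped with blank, while the other groups overlapped with each other. In bulk RNA, fewer cells in S phase and less histone RNA per cell cannot be told apart.

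**Figure D2:**
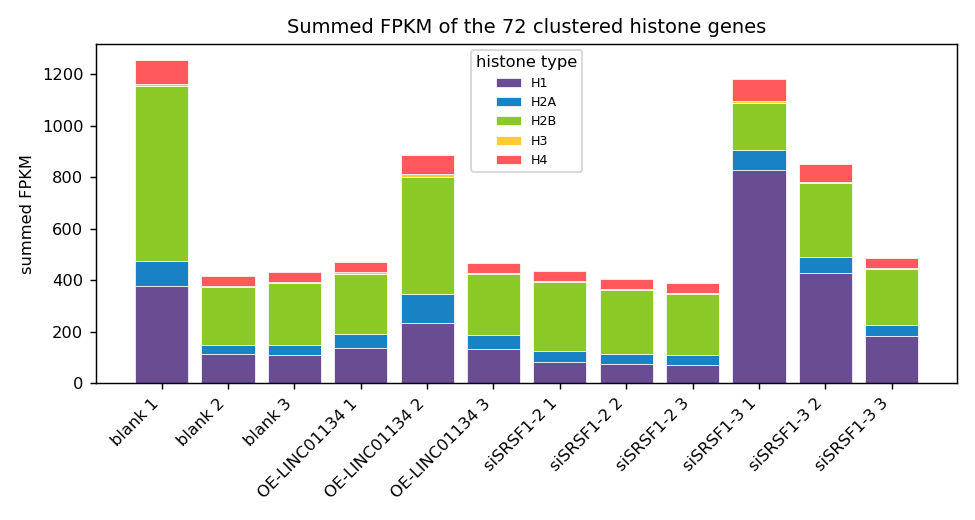
Summed FPKM of the 72 clustered histone genes (vertical axis) in each library (horizontal axis), divided by histone type. Blank replicate 1, OE-LINC01134 replicate 2 and siSRSF1-3 replicates 1 and 2 sit at 848.8 FPKM or more and the other 8 libraries at 486 or less. The FPKM of all genes also summed higher in siSRSF1-3 replicates 1 and 2 (611084 and 410612) than in every other library (281051 to 324607).

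The same libraries stood out gene by gene. Relative to the mean of each gene over the 12 libraries, on the log2(FPKM + 0.1) scale, the 29 tested genes had a median of 0.79, -0.20 and -0.14 in blank replicates 1 to 3, and of 0.14, 0.72 and -0.08 in the OE-LINC01134 replicates. The median was -0.32, -0.43 and -0.33 with siSRSF1-2 and 0.36, 0.28 and -0.28 with siSRSF1-3, while over all 17538 genes tested it stayed between -0.03 and 0.04 in every library. The deposited FPKM carry size factors that level the median over genes, so this narrow range follows from the scaling. Of the 29 genes, 23 were highest in replicate 1 of blank and 22 in replicate 2 of OE-LINC01134. The highest replicate exceeded the lowest by a median factor of 2.05 in blank, 1.99 in OE-LINC01134, 1.21 in siSRSF1-2 and 2.03 in siSRSF1-3, against 1.33, 1.34, 1.11 and 1.69 over all genes tested.

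Genes of the cell cycle are given beside these values. On the same scale, the 28 S phase genes listed had medians of 0.77, -0.02 and -0.05 in blank, 0.50, 0.64 and 0.53 in OE-LINC01134, -0.49, -0.53 and -0.51 in siSRSF1-2 and -0.33, -0.31 and -0.24 in siSRSF1-3. The 16 G2/M genes had medians of 0.65, -0.02 and -0.04 in blank, 0.53, 0.46 and 0.51 in OE-LINC01134, -0.33, -0.33 and -0.27 in siSRSF1-2 and -0.34, -0.37 and -0.28 in siSRSF1-3. Blank replicate 1 was thus high in all 3 lists, whereas OE-LINC01134 replicate 2 stood apart from its group for the histone genes but lay near it for both cell cycle lists, and siSRSF1-3 replicates 1 and 2 had positive medians for the histone genes and negative ones for both cell cycle lists. The part of the cell cycle in the histone values was not tested.

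HIST1H1C and HIST1H2BK were compared within each library, where scaling cancels. HIST1H1C lay at 375, 109.8 and 108 FPKM in blank, 136, 229 and 129 in OE-LINC01134, 79.8, 71.5 and 68.3 with siSRSF1-2 and 825, 426 and 182 with siSRSF1-3. HIST1H2BK lay at 545, 163 and 177 FPKM in blank, 167, 336 and 172 in OE-LINC01134, 222, 209 and 196 with siSRSF1-2 and 71.1, 192 and 162 with siSRSF1-3. Blank replicate 1 and OE-LINC01134 replicate 2 were high in both genes, but siSRSF1-3 replicate 1 had the highest HIST1H1C and the lowest HIST1H2BK of all libraries. The ratio of HIST1H1C to HIST1H2BK was 0.657 ± 0.0412 (SD, n = 3) in blank, 0.750 ± 0.0655 (SD, n = 3) in OE-LINC01134 and 0.350 ± 0.00879 (SD, n = 3) with siSRSF1-2. With siSRSF1-3 it was 11.6, 2.22 and 1.12. The siSRSF1-2 ratios thus lay below, and the siSRSF1-3 ratios above, every blank and OE-LINC01134 ratio, including those of blank replicate 1 (0.688) and OE-LINC01134 replicate 2 (0.683). The ratio was chosen after its values were seen and is given without a test.

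**Figure D3:**
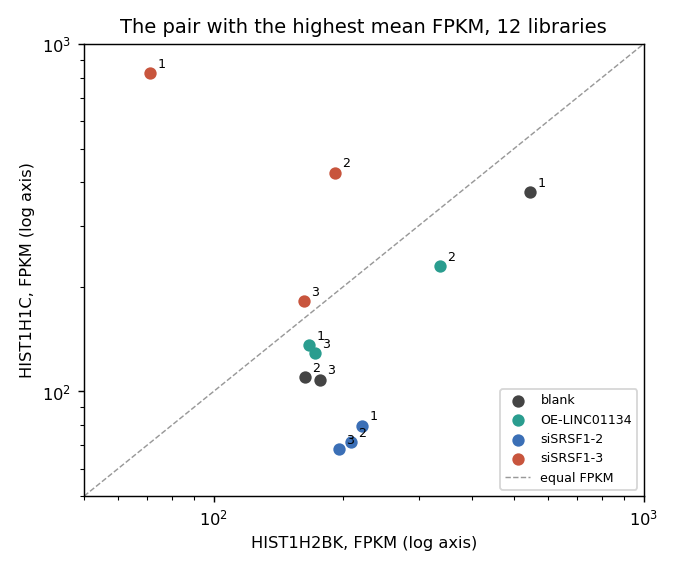
FPKM of HIST1H1C (vertical log axis) against FPKM of HIST1H2BK (horizontal log axis) in the 12 libraries, with the replicate number beside each point and equal FPKM on the dashed line. The siSRSF1-3 libraries lie above the line and the siSRSF1-2 libraries farthest below it.

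For siSRSF1-2, the question was which clustered histone genes differed from blank after knockdown. The tested genes were mostly lower: 25 of 29 log2 fold changes were negative and 4 positive, with a median of -0.52, against 0.02 over all genes tested. Past the threshold, an adjusted p under 0.05 with a log2 fold change over 1 in either direction, 1 gene was lower (of all genes 2.73% were lower) and 0 were higher (of all genes 2.22%). Before adjustment, 3 genes, all lower, had p under 0.05 and that fold (3.43% of all genes were lower so), and limma's voom on the recovered reads also called 1 lower (3.01% of all genes) and 0 higher. The groups did not overlap for 12 genes that were lower, where 24.2% of all genes were lower without overlap, and for 1 gene that was higher, where 25.3% of all genes were higher.

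The gene past the threshold was HIST1H2BJ, an H2B gene. HIST1H2BJ lay at 46.4, 24.9 and 23.6 FPKM in blank and at 14.1, 12 and 12.7 FPKM with siSRSF1-2. All 3 siSRSF1-2 libraries were below all 3 blank libraries. The log2 fold change was -1.21 (SE 0.26), with a limma adjusted p of 0.0205. Without blank replicate 1 it was -0.90, under the minimum fold, with an adjusted p of 0.000323, and without siSRSF1-2 replicate 1, 2 or 3 the adjusted p was 0.0644, 0.0803 and 0.0774. HIST2H2AC was the gene called as lower without siSRSF1-2 replicate 1 (log2 fold change -1.14, limma adjusted p = 0.0336), beside 1.89% of all genes.

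At any fold, 5 of the 29 genes were lower with an adjusted p under 0.05, beside 12.8% of all genes. The 4 other than HIST1H2BJ are named for this after their values were seen. They were HIST2H2AC (log2 fold change -0.93, adjusted p = 0.032), HIST1H2AG (-0.81, 0.00935), HIST1H4J (-0.61, 0.041) and HIST1H1E (-0.53, 0.041), all by limma. All 4 were lower in every siSRSF1-2 library than in every blank library. HIST1H2AG, an H2A gene with a listed length of 2250 bases, lay at 6.77, 5.80 and 5.04 FPKM in blank and 3.02, 3.67 and 3.22 with siSRSF1-2.

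Besides HIST1H2BJ, 3 genes that were lower without overlap had log2 fold changes beyond -1, and these did not pass the test. HIST1H2BC lay at 19.8, 6.07 and 7.08 FPKM in blank and 4.26, 3.41 and 3.21 with siSRSF1-2, with a log2 fold change of -1.37 (SE 0.44) and a limma adjusted p of 0.0671, and it ranged from -1.69 to -0.85 on leaving out 1 library. ENSG00000269466, listed as an H3 pseudogene on chromosome 5, had a log2 fold change of -1.30 (SE 0.49) and an adjusted p of 0.103. HIST1H1C had a log2 fold change of -1.17 (SE 0.48) and an adjusted p of 0.127, which became -0.58 with an adjusted p of 0.00119 without blank replicate 1. For HIST1H2BC and HIST1H1C the blank group was spread widely, with replicate 1 at the top. ENSG00000269466 lay at 0.702, 0.432 and 0.531 FPKM in blank and at 0.392, 0.0692 and 0.115 with siSRSF1-2, where the spread was wider. It had only 11, 2 and 4 reads in the siSRSF1-2 libraries.

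HIST1H2BK did not follow them. Its log2 fold change with siSRSF1-2 was -0.27 (SE 0.46, limma adjusted p = 0.698), and 0.29 (adjusted p = 0.0111) without blank replicate 1, so its direction depended on that library. HIST4H4, the single gene of cluster 4, was the gene that was higher without overlap, at 2.70, 2.12 and 2.34 FPKM in blank and 2.73, 2.94 and 2.82 with siSRSF1-2 (log2 fold change 0.24, adjusted p = 0.163).

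By type, all 7 H2B genes (median -0.52), all 4 H3 genes (median -0.92), both H1 genes (median -0.85), 5 of 7 H2A genes (median -0.23) and 7 of 9 H4 genes (median -0.48) had negative log2 fold changes. Without blank replicate 1, the median over the 29 genes was -0.33, with 19 negative and 10 positive. The gene called was then another, HIST2H2AB, higher, with a log2 fold change of 1.64 and a limma adjusted p of 0.0177. Of all genes, 3.03% were called higher without that library. HIST2H2AB lay at 0.919, 0.179 and 0.156 FPKM in blank and 0.886, 0.431 and 1 with siSRSF1-2, so blank replicate 1 lay among the siSRSF1-2 libraries. These values rested on few reads, 10, 2 and 2 in blank and 10, 5 and 14 with siSRSF1-2.

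**Figure D4:**
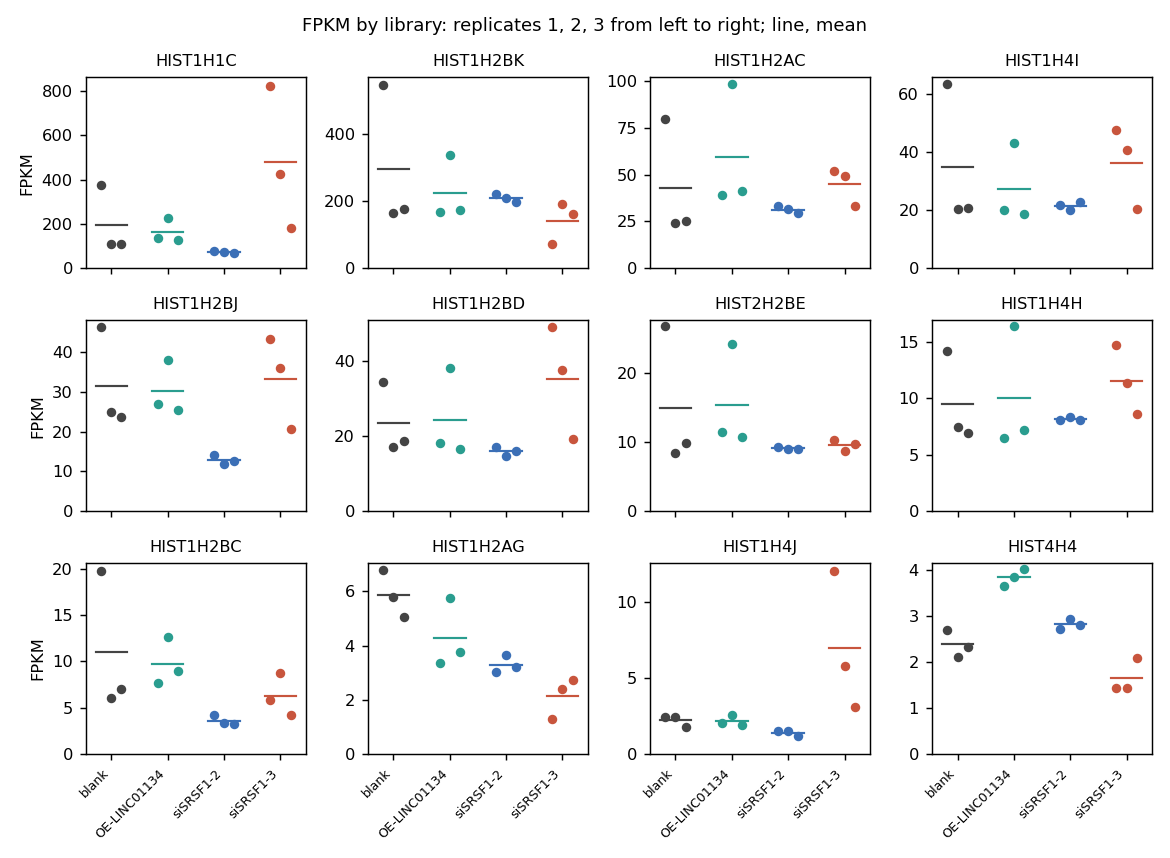
FPKM (vertical axes, from 0) of 12 clustered histone genes in each library, by group (horizontal axes), with replicates 1 to 3 from left to right and the group mean as a line. Blank replicate 1 and OE-LINC01134 replicate 2 stand above their groups for HIST1H2BK and HIST2H2BE, while HIST1H2BJ lies at 12 to 14.1 FPKM in all siSRSF1-2 libraries.

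The S phase genes were lower as well in this comparison: 6 of 28 passed the threshold as lower and 0 as higher, with a median of -0.70 and no positive log2 fold change. Without blank replicate 1, 3 were lower (3.74% of all genes) with a median of -0.38. Leaving out siSRSF1-2 replicate 1, 2 or 3 gave 3 lower each time (1.89%, 1.94% and 1.9% of all genes). PRIM1, a subunit of primase (log2 fold change -1.57, adjusted p = 0.000951), RRM2 of ribonucleotide reductase (-1.05, 0.00199), the licensing factor CDT1 (-1.27, 0.00927) and CDC6, which loads the MCM helicase (-1.15, 0.0127), were among them by limma. Of the 16 G2/M genes, CDC20, an activator of the anaphase-promoting complex, was lower (log2 fold change -1.06, adjusted p = 0.0291) and the median was -0.47. Without blank replicate 1, or without any 1 of the siSRSF1-2 libraries, 0 of the 16 passed.

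Among the factors of histone mRNA transcription, processing and decay, 0 of 17 passed the threshold with siSRSF1-2, and the median log2 fold change was 0.12. LSM10, a protein of the U7 RNP, had a log2 fold change of -0.15 and CSTF2, a cleavage factor, of -0.25. SLBP, chosen after its values were seen for its part in all stem-loop transcripts, lay at 27.3, 19.4 and 18.5 FPKM in blank and 16.9, 16.7 and 16.8 with siSRSF1-2 (log2 fold change -0.35, limma adjusted p = 0.143). Of the 13 histone chaperones tested, 0 passed (median -0.15), with SSRP1 of the FACT complex at -0.16 and NASP, an H1 and H3-H4 chaperone, at -0.32.

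The histone variants encoded outside the clusters, most of them made from polyadenylated transcripts, had 0 genes past the threshold in the 4 comparisons with all libraries. Of 11 tested, 9 had negative log2 fold changes with siSRSF1-2 (median -0.23). H1F0, the linker histone of resting cells, lay at 433, 525 and 516 FPKM in blank and 622, 602 and 618 with siSRSF1-2 (log2 fold change 0.33, limma adjusted p = 0.0384, under the minimum fold). For H3F3B, which encodes H3.3, the log2 fold change was 0.32 (adjusted p = 0.0532). They were the 2 variants with a positive sign, while H1FX (-0.11) and H3F3A (-0.12) had negative ones like HIST1H1C and the 4 H3 genes. CENPA, a further H3 variant with a negative sign, lay at 28.9, 19.6 and 18.4 FPKM in blank. With siSRSF1-2 it lay at 13.3, 12.3 and 13.1 FPKM. The difference between the lists was not tested.

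For siSRSF1-3, the comparison shared its blank libraries with that of siSRSF1-2, so both sets of values move together with them. Of the 29 genes, 17 had positive and 12 negative log2 fold changes, with a median of 0.16 against -0.01 over all genes. By limma 0 genes were past the threshold as higher (of all genes 0.331% were higher) and 0 as lower (0.929%). Before adjustment, 3 genes had p under 0.05 and that fold, beside 14.8% of all genes, and voom called 1, HIST1H2AG, as lower, beside 2.34% of all genes. The groups did not overlap for 1 gene that was higher (of all genes 19.2% were higher) and for 4 that were lower (18% of all genes).

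The sign of the median depended on the scaling. When the read total of a library set its scale, the median over the histone genes was -0.08 and over all genes -0.26, and with the same FPKM sum in every library they were -0.27 and -0.43. Relative to all genes the histone median was thus 0.17 as deposited, 0.17 for the read total and 0.16 for the FPKM sum. It also depended on the libraries, since it ranged from -0.14 without siSRSF1-3 replicate 1 to 0.42 without siSRSF1-3 replicate 3, and was 0.09 without blank replicate 1 and siSRSF1-3 replicate 1 together.

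HIST1H4J, an H4 gene, was the one higher without overlap. It lay at 2.42, 2.45 and 1.80 FPKM in blank and at 12, 5.80 and 3.10 FPKM with siSRSF1-3. The siSRSF1-3 values were spread widely, yet the lowest exceeded the highest blank value. The log2 fold change was 1.41 (SE 0.46), with a limma adjusted p of 0.119, and without siSRSF1-3 replicate 3 it was 1.88 with an adjusted p of 0.0154. Without that library 3 histone genes were higher and 1 was lower, beside 12.5% and 11.4% of all genes.

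HIST1H2AG, HIST1H2BF and HIST1H1E were lower without overlap. HIST1H2AG lay at 1.29, 2.41 and 2.74 FPKM with siSRSF1-3, against 5.04 to 6.77 in blank (log2 fold change -1.47, SE 0.30, adjusted p = 0.061). HIST1H2BF, an H2B gene, lay at 1.93, 0.5 and 0.486 FPKM in blank and 0.0853, 0.132 and 0.188 with siSRSF1-3, from 2 to 7 reads in each siSRSF1-3 library (log2 fold change -1.95, SE 0.63, adjusted p = 0.117). HIST1H1E lay at 2.25, 2.01 and 1.62 FPKM in blank and 1.29, 0.783 and 1.02 with siSRSF1-3 (log2 fold change -0.88, SE 0.27, adjusted p = 0.108). HIST1H2AG passed the threshold by voom (adjusted p = 0.0457), in 1 fit over all 4 groups (adjusted p = 0.0082) and without siSRSF1-3 replicate 3 (adjusted p = 0.0146), with every alternative run giving a negative value. That fit over all groups also called HIST1H2BF as lower (adjusted p = 0.0213) and HIST1H4J as higher (adjusted p = 0.0232), with 6.71% of all genes lower and 7.1% higher. The fourth gene lower without overlap was HIST4H4 (log2 fold change -0.51, adjusted p = 0.192).

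HIST1H1C had a log2 fold change of 1.28 (SE 0.69, limma adjusted p = 0.248, 0.76 to 1.87 on leaving out 1 library) with siSRSF1-3, with the third library, at 182 FPKM, inside the blank range of 108 to 375 FPKM. For HIST1H2BK the log2 fold change was -0.94 (SE 0.58, adjusted p = 0.297). By length, the 11 tested genes over 1000 bases had a median of -0.37 and the 18 shorter ones a median of 0.17, while over all genes tested of these lengths the medians were -0.01 and 0.00.

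Beside these, the S phase genes had 0 of 28 past the threshold and a median of -0.51, the G2/M genes 0 of 16 and -0.53, the variants 0 of 11 and 0.37, the factors of histone mRNA 0 of 17 and -0.11, and the chaperones 0 of 13 and 0.01. The S phase median was -0.20 without blank replicate 1, and -0.13 without siSRSF1-3 replicate 1 as well. Without siSRSF1-3 replicate 3, 12.5% of all genes were called higher and 11.4% lower. In that fit, 6 S phase genes were lower, 5 G2/M genes were lower and 1 was higher, and 3 variants were higher. Of the factors of histone mRNA, 1 was higher and 1 lower. H1F0 had a log2 fold change of 0.38 and H3F3B of 1.03 (limma adjusted p = 0.0834). LSM10 lay at 55.4, 41.2 and 21.2 FPKM with siSRSF1-3 against 20.7 to 25.5 in blank (log2 fold change 0.69, adjusted p = 0.226). CSTF2 lay at 16.7, 19 and 18.5 FPKM with siSRSF1-3 against 19.4 to 29.5 in blank. Of the 17 factors of histone mRNA, 6 had positive and 11 negative log2 fold changes.

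**Figure D5:**
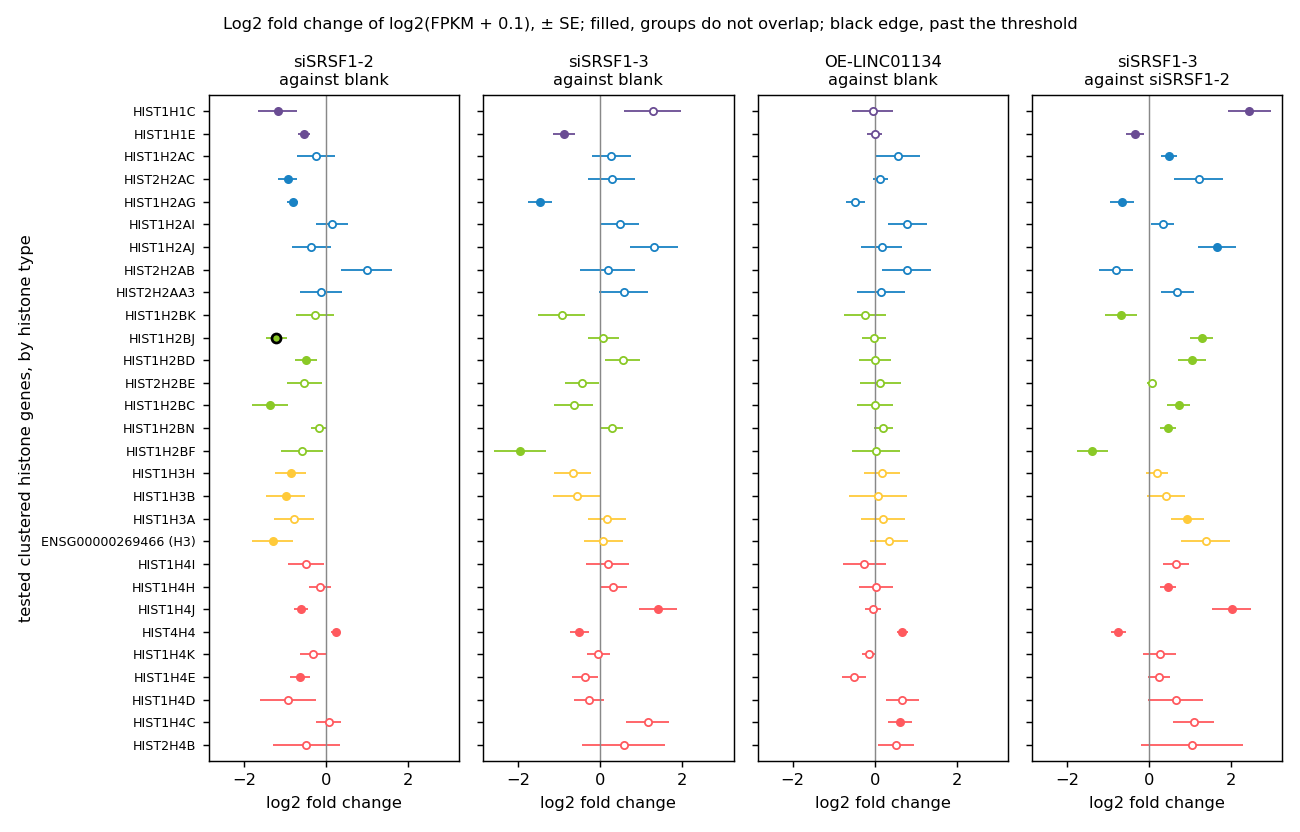
Log2 fold change of log2(FPKM + 0.1) ± SE (horizontal axes) of the 29 tested clustered histone genes (vertical axis, by histone type) in the 4 comparisons. Filled points mark groups that do not overlap, and the black edge marks HIST1H2BJ, the gene past the threshold with siSRSF1-2.

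For OE-LINC01134, again against the same blank libraries, 21 of 29 log2 fold changes were positive and 8 negative, with a median of 0.14 against 0.05 over all genes. By limma 0 genes were higher past the threshold (0.257% of all genes) and 0 lower (0.593%), 0 had p under 0.05 and that fold before adjustment (7.45% of all genes), and voom called 0 (1.98% of all genes). The groups did not overlap for 2 genes that were higher, where 16.8% of all genes were higher, and for 0 that were lower, where 13.8% were lower. The median was 0.54 without blank replicate 1, -0.17 without OE-LINC01134 replicate 2 and 0.25 without both.

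HIST4H4, at 2.70, 2.12 and 2.34 FPKM in blank, lay at 3.67, 3.86 and 4.03 FPKM in OE-LINC01134, with a log2 fold change of 0.68 (SE 0.14) and a limma adjusted p of 0.0687. Every OE-LINC01134 library was above every blank library, and neither blank replicate 1 nor OE-LINC01134 replicate 2 stood far from its group. HIST1H4C, the other gene without overlap, rested on 4 to 7 reads per library (log2 fold change 0.62, adjusted p = 0.242). HIST1H1C had a log2 fold change of -0.05 and HIST1H2BK of -0.24, and both were positive without blank replicate 1, at 0.55 and 0.32.

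HIST1H2AC and HIST2H2BE show how the spread limits this comparison. HIST1H2AC, an H2A gene, lay at 79.5, 24.3 and 25.5 FPKM in blank and 39.4, 98.4 and 41.1 in OE-LINC01134. HIST2H2BE, an H2B gene of cluster 2, lay at 26.8, 8.42 and 9.88 FPKM in blank and 11.5, 24.2 and 10.7 in OE-LINC01134. The library that stood apart was above the others of its group in both genes, so the groups overlapped.

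The S phase genes had 0 of 28 past the threshold with OE-LINC01134, with 25 positive and a median of 0.35, and the G2/M genes 0 of 16 with a median of 0.39. The variants had 0 of 11 (median 0.16), the factors of histone mRNA 0 of 17 (median 0.23) and the chaperones 0 of 13 (median 0.20). Without blank replicate 1, 3 S phase genes were higher (1.81% of all genes) and the S phase median was 0.59. Without OE-LINC01134 replicate 2 as well, 2 S phase genes and 1 G2/M gene were higher (5.1% of all genes). Of the markers of the line, ALPL, the alkaline phosphatase of osteoblasts, was lower (log2 fold change -1.91, limma adjusted p = 0.0402), and VIM lay at 68.7 and 69.4 FPKM in OE-LINC01134 replicates 1 and 3 but at 248 in replicate 2, against 181 to 244 in blank. With siSRSF1-2, VIM lay at 77.3 to 79.1 FPKM in all 3 libraries (log2 fold change -1.39, limma adjusted p = 0.00148).

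The siRNAs were compared directly, which needs no blank library. Of the 29 genes, 23 were higher and 6 lower in mean log2 value with siSRSF1-3 than with siSRSF1-2, with a median difference of 0.49 against -0.02 over all genes. By limma 0 genes were higher past the threshold (0.0342% of all genes) and 0 lower (0.0513%), while 6 had p under 0.05 and that fold before adjustment (16.4% of all genes) and voom called 0 (0.627% of all genes). The groups did not overlap for 10 genes that were higher, where 27% of all genes were higher, and for 5 that were lower, where 27.6% were lower. Scaled to the read total the median was 0.19 (all genes -0.31), and at the same FPKM sum it turned to -0.08 (all genes -0.57), so the difference from all genes was 0.51, 0.50 and 0.49 in turn.

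HIST1H1C differed the most, with 68.3 to 79.8 FPKM against 182 to 825 (log2 fold change 2.45, SE 0.53, limma adjusted p = 0.0758). HIST1H4J lay at 1.49, 1.54 and 1.21 FPKM with siSRSF1-2, below the 3.10 to 12 with siSRSF1-3 (log2 fold change 2.02, adjusted p = 0.0773). HIST1H2AJ, an H2A gene, lay at 0.270, 0.262 and 0.291 FPKM with siSRSF1-2 and 1.71, 1.42 and 0.497 with siSRSF1-3 (log2 fold change 1.66, adjusted p = 0.0819). It rested on 3, 3 and 4 reads with siSRSF1-2 and 13, 14 and 6 with siSRSF1-3. In all 3 genes, siSRSF1-3 replicate 3 was the nearest to the siSRSF1-2 libraries.

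Of the lower genes, HIST1H2BF had a log2 fold change of -1.38 (SE 0.38, adjusted p = 0.0815), HIST4H4 of -0.75 (SE 0.18, adjusted p = 0.0792) and HIST1H2BK of -0.68 (SE 0.39, adjusted p = 0.212). HIST4H4 lay at 2.73, 2.94 and 2.82 FPKM with siSRSF1-2 and 1.44, 1.45 and 2.09 with siSRSF1-3. The calls depended on the third siSRSF1-3 library. Without it, 16% of all genes were called higher and 14.5% lower, and 9 histone genes were higher and 1 was lower past the threshold, among them HIST1H1C (log2 fold change 3.02, adjusted p = 0.00194), HIST1H2BJ (1.61, 0.00136) and HIST1H2BD (1.42, 0.00195) as higher and HIST1H2BF (-1.53, 0.0139) as lower. Without siSRSF1-3 replicate 1, 0 histone genes were called in either direction, beside 0.0456% of all genes higher and 0.0741% lower. Without replicate 2, 0 histone genes were called, and 0 of all genes.

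Beside these, 10 of the 11 variants had positive log2 fold changes with a median of 0.70, the S phase genes 18 of 28 with a median of 0.29, the chaperones 10 of 13 with a median of 0.32, and 0 of any of these lists passed the threshold. The G2/M genes had a median of -0.01 and the factors of histone mRNA of -0.07, with 0 called. Without siSRSF1-3 replicate 3, 16% of all genes were called higher and 14.5% lower. In that fit, 5 variants were higher, 4 S phase genes were higher and 3 lower, and 2 G2/M genes were higher and 5 lower. Of the factors of histone mRNA, 1 was higher and 2 lower, and 1 chaperone was lower.

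How the counting treated reads shared by near-identical gene copies is not given in the sources used here. HIST2H4A and HIST2H4B, a pair of H4 genes chosen after their values were seen, had 4 and 47 reads in siSRSF1-2 replicate 2, but 14 and 8 in replicate 3. With siSRSF1-3 they had 67 and 11, 5 and 140, and 104 and 5 reads in replicates 1 to 3. Added together, the pair had 30, 20 and 48 reads in blank, 30, 71 and 37 in OE-LINC01134, 5, 51 and 22 with siSRSF1-2 and 78, 145 and 109 with siSRSF1-3. The copy with more reads thus changed between replicates, so values of either gene alone are taken as uncertain, and the cause was not tested. HIST2H2AA3 and HIST2H2AA4, another such pair, had like numbers of reads in most libraries, such as 13 and 16, 6 and 6, and 3 and 1 in blank.

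Of the 43 genes under the minimum, 7 still had a read in every library, among them HIST2H4A with a mean of 0.493 FPKM. HIST3H2A, an H2A gene of cluster 3 chosen after its values were seen, had 28 reads in blank replicate 2, 18 in blank replicate 3 and 1 in siSRSF1-2 replicate 2, and 0 in the other 9 libraries, blank replicate 1 included. All 43 genes together held 0.816% of the reads on clustered histone genes.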

How the data were processed

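RNA-seq was carried out in 12 U2OS libraries, 3 per group. Per the file headers, the authors deposited FPKM per gene, the listed gene length and the gene description; the aligner, the counter and the annotation release are not given in the sources used here, and the submitters' processing notes list a mouse build although the genes are human Ensembl genes. FPKM times gene length came in whole multiples of 1 step per library, from which reads were recovered; the deposited values carry size factors. Values were taken as log2(FPKM + 0.1), genes with a mean of at least 0.5 FPKM over the 12 libraries were kept (17538), and groups were compared in pairs by limma 3.58.1 (lmFit, eBayes with trend) in R 4.3.3, with Benjamini-Hochberg adjustment over all genes kept. The threshold was an adjusted p under 0.05 with a log2 fold change over 1 in size. Fold changes on this scale understate those of low genes. A single-gene exact permutation test of 3 against 3 cannot go below p = 0.1 and was not used. The script was tested on simulated data, which held no libraries that stood apart from their group as the real ones did.

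The genes, lists and tests were chosen with earlier results of these data known. Genes were named if they were among the 8 with the highest mean, past the threshold, among the 3 higher and 3 lower with the largest fold among those whose groups did not overlap, or known to be polyadenylated as well; of other lists, up to 4 past the threshold, or else the 2 with the highest mean. Other pseudocounts, filters, scalings, voom on recovered reads, 1 fit over all groups, a replicate block and leaving out libraries were tried. Leaving out pairs of libraries was chosen after seeing the data. Histone sequences were not used here.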

Additional observations from a re-analysis of the deposited data

How the results depend on the processing

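Of 447 alternative values of the 26 log2 fold changes followed for named genes, 414 kept their direction and side of the threshold, 19 passed it newly, 6 no longer passed it and 8 changed sign. Only HIST1H2BJ with siSRSF1-2 passed it in the main fit, so the 6 losses were all among its 17 alternatives. For the other log2 fold changes, keeping the side of the threshold meant staying uncalled. For siSRSF1-2 against blank, the count of lower histone genes was 1 (2.73% of all genes). It became 0 without the filter on low FPKM (1.13%), 0 in 1 fit over all 4 groups (1.03%) and 5 with no minimum fold (12.8%). Leaving out 1 library gave 0 to 2 lower and 0 to 1 higher (at most 3.74% and 3.03% of all genes). For siSRSF1-3 against blank, 1 fit over all 4 groups called 1 higher and 2 lower (7.1% and 6.71% of all genes) and voom called 1 lower (2.34%), while leaving out 1 library gave 0 to 3 higher and 0 to 1 lower (at most 12.5% and 11.4% of all genes). For OE-LINC01134, 1 gene was higher without blank replicate 1 and OE-LINC01134 replicate 2 together (5.1% of all genes). For siSRSF1-3 against siSRSF1-2, 1 fit over all 4 groups called 4 higher (8.39% of all genes), leaving out 1 library gave 0 to 9 higher and 0 to 1 lower (at most 16% and 14.5% of all genes), and the median, 0.49, was 0.19 without the filter, 0.19 scaled to the read total and -0.08 at the same FPKM sum. HIST1H2BK against blank changed sign with siSRSF1-2 (-0.57 to 0.29 on leaving out 1 library), with siSRSF1-3 (0.05 without blank replicate 1 and siSRSF1-3 replicate 1) and with OE-LINC01134 (-0.56 to 0.32). HIST1H1C changed sign with OE-LINC01134, at 0.04 for the same FPKM sum, 0.28 without both libraries and -0.35 to 0.55 on leaving out 1. The cause was not tested. The fit over all groups shares 1 estimate of the spread.

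Same-numbered libraries did not deviate together (correlations -0.081 to 0.042). With 3 libraries per group and some far from the others, this cannot exclude a weak pairing. With the replicate block, HIST1H2BJ kept its call (limma adjusted p = 0.0331). The counts of histone genes were 0 higher and 1 lower with siSRSF1-2 (1.71% and 2.17% of all genes) and 0 in the other comparisons. Over all genes, the 58 higher and 163 lower calls with siSRSF1-3 against blank became 0 and 0. Depth limits the 43 genes under the minimum, which held 1307 reads in all.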
